A study of Mus musculus with 6 samples.

Results

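The genes described here encode the machinery that breaks down triglyceride at the surface of the lipid droplet, with G0s2, the inhibitor of its first lipase, among them. The 10 names were matched to the gene names of the deposited expression table, namely G0s2, Abhd5, Pnpla2, Pnpla3, Lipe, Plin2, Plin4, Plin5, Cideb and Cidec, and all 10 were found among its 25718 genes. The table held poly(A)-selected RNA-seq of primary hepatocytes from alcohol-fed mice of 2 genotypes, 3 libraries from WT mice and 3 from S100a16KO+/- mice. Both genotypes were male mice of 8 to 10 weeks on a C57BL/6 background that had received 5 days of control liquid diet and 10 days of a diet holding ethanol at 5% by volume, and were then gavaged 1 time with ethanol at 5 g/kg and sampled 9 h later. Hepatocytes were released by collagenase perfusion and purified on Percoll. The S100a16KO+/- mice carried 1 allele of S100a16, a calcium-binding protein gene, deleted by EIIa-Cre, which acts in the early embryo, so every cell type of the mouse was heterozygous and not the hepatocytes alone. The labels call the same libraries a knockdown of S100A16. No mouse without alcohol was sequenced, so each comparison is between genotypes under alcohol.

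Lipolysis in the hepatocyte starts when PNPLA2 (adipose triglyceride lipase) removes a fatty acid from triglyceride at the droplet surface. ABHD5 activates PNPLA2 and G0S2 binds and inhibits it, while the perilipins coat the droplet and control access of lipases and of ABHD5 to it. Hormone-sensitive lipase, encoded by Lipe, and monoglyceride lipase, encoded by Mgll, act on the diglyceride and monoglyceride that follow. CIDE proteins govern fusion and growth of droplets, and CIDEB also takes part in loading lipid onto very low density lipoprotein. G0s2 and several perilipin genes are known targets of PPAR transcription factors.

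In S100a16KO+/- hepatocytes G0s2 mRNA was at 9.56% of its WT level, and Pnpla2, the lipase that its product inhibits, was 1.54-fold higher. The activator Abhd5 did not pass the test. Of the droplet coat and fusion genes Plin5 and Cideb fell to 65.3% and 77.8% of WT, and Plin4 and Cidec did not pass, nor did the lipase gene Lipe. Plin2 was at 87.3% of WT and passed, a call that was lost in 8 of 17 alternatives. Pnpla3 was at the detection limit in every library. In all, 9 of the 10 genes had enough counts to be tested and 5 passed at an adjusted p below 0.05, against 22.8% of the 15957 genes tested over the whole table. One of the 9 was higher (11.6% of all tested genes were) and 4 were lower (11.2% of all tested genes were). The WT and S100a16KO+/- libraries did not overlap in 5 of the 9, against 37.9% of all tested genes. Only G0s2 among them reached an unadjusted p below 0.05 together with a fold change of at least 2, which 4.52% of all tested genes did. The median log2 fold change of all tested genes was 0.01. The 10 genes were chosen with earlier results of these data known, so these shares cannot show whether such genes changed more often than others.

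Levels are given below as CPM (a gene's share of the library's counts, scaled between libraries), which serve to compare 1 gene between libraries, and as FPKM, which divides by transcript length and serves to compare genes. Fold changes are S100a16KO+/- over WT from edgeR's quasi-likelihood test on counts, with p-values adjusted by Benjamini-Hochberg over the 15957 tested genes. Nothing in the labels says that the 3 libraries of a genotype came from separate animals, so the p-values measure the spread between these libraries, which may be partly technical. The libraries totalled 67658095 to 71807834 deposited counts, of which 16.98% to 21.1% were from mitochondrial genes. About 4 counts were taken to stand for 1 sequenced fragment, an inference from peaks in the count values. A count of 0 is compatible with an expected number of up to about 3 fragments. These were 12 counts or 0.167 to 0.177 CPM, used as the detection limit. The targeted gene S100a16 was at 15.3 ± 0.796 CPM (SD, n = 3) in WT and 5.80 ± 0.628 CPM (SD, n = 3) in S100a16KO+/- libraries, 38.0% of WT (adjusted p = 4.14e-07, edgeR's quasi-likelihood test), and Manf, an endoplasmic reticulum protein gene, went from 24.2 to 182.8 CPM. WT replicate 1 and S100a16KO+/- replicate 2 had the highest mitochondrial shares of their genotypes, 21.1% and 20.1%, and lay apart from the other 4 on the second principal component (12.8% of the variance), while the genotypes separated on the first (58.9%). With both of these libraries left out the same number of the 10 genes, 5, passed.

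The promoters of the inhibitor, and of the lipase, the perilipin and the CIDE gene with the largest change, are shown so that the sequence at the start site can be read beside the values. All 10 genes matched RefSeq promoters of build GRCm38.p6, 13 in all, each 300 bases long with 250 before the start site and 50 after it. The search covered 5 motifs on both strands, namely the nuclear receptor half-site AGGTCA, the E-box CACGTG, the forkhead motif TGTTTAC, the cAMP response element TGACGTCA and the GC box GGGCGG. They were held by 16.3%, 7.15%, 3.65%, 1.79% and 35.7% of all 32851 promoters in that order, and the only matches that overlapped in these genes were 2 of the 6 GC boxes in a Lipe promoter. Capitals mark the matches, written as CCGCCC where a GC box lay on the other strand, and positions are those of the first base of the match with the start site as +1.
G0s2, chr1:193273139-193273438, minus strand: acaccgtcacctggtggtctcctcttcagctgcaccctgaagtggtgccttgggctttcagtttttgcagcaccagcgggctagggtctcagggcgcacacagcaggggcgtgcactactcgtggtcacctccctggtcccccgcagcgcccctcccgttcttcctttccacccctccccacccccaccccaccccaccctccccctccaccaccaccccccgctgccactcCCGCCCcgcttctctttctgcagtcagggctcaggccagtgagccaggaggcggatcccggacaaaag
Pnpla2, chr7:141454938-141455237, plus strand: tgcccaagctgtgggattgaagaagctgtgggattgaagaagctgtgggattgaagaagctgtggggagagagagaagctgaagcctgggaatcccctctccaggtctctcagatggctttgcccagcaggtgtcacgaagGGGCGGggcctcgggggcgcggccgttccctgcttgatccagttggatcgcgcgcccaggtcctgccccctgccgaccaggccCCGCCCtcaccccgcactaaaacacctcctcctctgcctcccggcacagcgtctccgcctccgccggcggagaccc
Plin5, chr17:56117499-56117798, minus strand: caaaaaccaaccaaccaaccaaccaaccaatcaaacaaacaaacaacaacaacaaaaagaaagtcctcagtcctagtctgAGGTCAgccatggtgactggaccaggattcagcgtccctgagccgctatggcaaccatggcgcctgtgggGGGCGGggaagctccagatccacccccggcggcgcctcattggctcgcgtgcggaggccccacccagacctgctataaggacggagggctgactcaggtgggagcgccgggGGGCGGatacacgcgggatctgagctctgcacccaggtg
Cideb, chr14:55758375-55758674, minus strand: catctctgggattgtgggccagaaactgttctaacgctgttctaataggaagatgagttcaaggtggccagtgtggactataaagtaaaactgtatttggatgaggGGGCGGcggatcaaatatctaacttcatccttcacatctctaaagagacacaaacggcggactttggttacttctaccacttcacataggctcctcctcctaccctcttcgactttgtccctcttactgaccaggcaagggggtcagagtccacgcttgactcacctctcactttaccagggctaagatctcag
The G0s2 promoter held 1 GC box at -18 and no match to the other 4 motifs, and the Pnpla2 promoter held GC boxes at -109 and -26 and no other match. The Plin5 promoter held the half-site AGGTCA at -170 with GC boxes at -100 and +12, and a second Plin5 promoter whose start site lies 250 bases downstream held the half-site at +14. The Cideb promoter held a GC box at -144. Elsewhere among the 10 genes the half-site was found in the promoters of Plin2 (-218) and Abhd5 (-69), the E-box in those of Plin2 (-4) and Lipe (-155), the forkhead motif in a promoter of Lipe (-119) and the cAMP response element in that of Pnpla3 (-46). The G0s2, Pnpla2 and Plin5 promoters shown had 66.7%, 65.3% and 60.3% G and C, the Cideb promoter 48.0%, and the median of all promoters was 52.7%.

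G0s2 (ENSMUSG00000009633) is a gene of 1057 bases with 2 exons on the minus strand of chromosome 1, at 193272161 to 193273217 in GRCm38. It had 13047, 13278 and 13234 counts in WT replicates 1 to 3 and 1257, 1291 and 1193 counts in S100a16KO+/- replicates 1 to 3. After scaling these were 191, 188.6 and 193.4 CPM in WT and 18.1, 20.1 and 16.6 CPM in S100a16KO+/- libraries. The lowest WT library was thus far above the highest S100a16KO+/- library, and the WT libraries lay within 5 CPM of each other. The log2 fold change was -3.39 (SE 0.07, 95% interval -3.54 to -3.23, adjusted p = 4.05e-13, edgeR's quasi-likelihood test), a level 10.5-fold lower than in WT. Among all tested genes G0s2 ranked 5 by p-value and 23 by the size of the fall. In FPKM it went from 195.8 ± 8.54 to 18.8 ± 0.943 (SD, n = 3 each), which moved it from rank 198 to rank 1320 among the 25718 genes. In WT hepatocytes G0s2 therefore had the highest level per length of the 10 genes, and in S100a16KO+/- hepatocytes it was below Cideb, Plin2 and Pnpla2. In these bulk libraries fewer cells that express a gene and less of its RNA per cell cannot be told apart.

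The whole of G0s2 lies in the span of Lamb3, a laminin chain gene on the opposite strand, with 0 exon bases in common and no 31-base stretch of its transcript found in any other gene. Lamb3 was itself lower, at 6.23 ± 0.556 CPM in WT and 2.82 ± 0.393 CPM in S100a16KO+/- libraries (SD, n = 3 each). Its log2 fold change was -1.15 (SE 0.16, adjusted p = 9.77e-05, edgeR's quasi-likelihood test). Per length it was at 0.840 FPKM in WT, far below G0s2. The library kit keeps the strand, but the strand setting of the counting is not given in the sources used here, and the part of reads from one gene in the counts of the other was not tested.

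**Figure D1:**
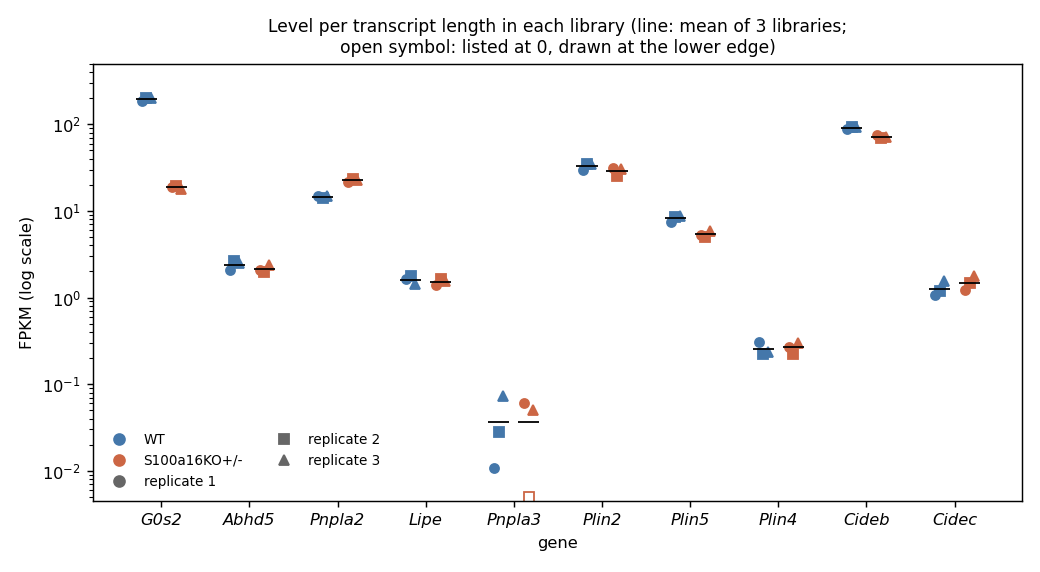
FPKM (log scale) of the 10 genes in each of the 6 libraries, blue for WT and orange for S100a16KO+/-, the shape giving the replicate and the line the mean of 3 libraries. G0s2 falls from near 196 to near 19 FPKM, Pnpla2 rises from 14.7 to 22.7 FPKM, and Pnpla3 lies under 0.1 FPKM, with 1 library listed at 0 and drawn open at the lower edge.

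Abhd5 (ENSMUSG00000032540, chromosome 9, 122351608 to 122381524, plus strand), the activator of PNPLA2, was at 14.5, 17.01 and 16.6 CPM in WT and 13.7, 13.7 and 15.4 CPM in S100a16KO+/- libraries. The genotypes overlapped, since the highest S100a16KO+/- library lay above the lowest WT library. Its log2 fold change of -0.17 (SE 0.09, 95% interval -0.37 to 0.04) did not pass (adjusted p = 0.247, edgeR's quasi-likelihood test), and the interval spans from 0.775 to 1.03 times the WT level. Abhd5 shares 950 exon bases with the antisense gene A730085K08Rik, which was at 0 counts in every WT library. Per length Abhd5 was the lower partner, at 2.40 FPKM in WT and 2.15 FPKM in S100a16KO+/- hepatocytes beside 14.7 and 22.7 FPKM of Pnpla2.

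Pnpla2 (ENSMUSG00000025509, chromosome 7, 141455198 to 141460743, plus strand), the first lipase of the pathway, was the only one of the genes that passed as higher. It was at 52.8, 46.5 and 49.6 CPM in WT and 72.2, 83.7 and 73.6 CPM in S100a16KO+/- libraries, so that the genotypes did not overlap. The log2 fold change was 0.62 (SE 0.07, 95% interval 0.47 to 0.77, adjusted p = 1.45e-05, edgeR's quasi-likelihood test). The S100a16KO+/- library with the highest value, replicate 2, was 1 of the 2 that lay apart on the second component. Without it and WT replicate 1 the gene still passed, as under each of the other alternatives, where the log2 fold change ran from 0.55 to 0.67.

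Lipe (ENSMUSG00000003123, chromosome 7, 25379527 to 25398710, minus strand), the diglyceride lipase of fat and steroid-producing tissue, was low in these cells. It was at 11.3, 11.3 and 9.40 CPM in WT and 8.90, 11.5 and 9.71 CPM in S100a16KO+/- libraries, with overlap, and its log2 fold change of -0.09 (SE 0.12, 95% interval -0.34 to 0.17) did not pass (adjusted p = 0.677, edgeR's quasi-likelihood test). It shares 918 exon bases with the antisense gene 4732471J01Rik, which was at 0.159 and 0.326 CPM on average in WT and S100a16KO+/- libraries. Pnpla3 (ENSMUSG00000041653, chromosome 15, 84167837 to 84187236, plus strand), a lipase relative known for a human variant of fatty liver, had 2, 4 and 9 counts in WT and 8, 0 and 7 counts in S100a16KO+/- libraries. Every one of these is under the limit of 12 counts, so although most were above 0, no level or difference of Pnpla3 could be resolved at this depth. By FPKM Pnpla2 made up 88.8% to 90.8% of the sum of Pnpla2, Pnpla3 and Lipe in WT and 93.5% to 93.8% in S100a16KO+/- libraries.

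Plin5 (ENSMUSG00000011305, chromosome 17, 56111601 to 56117596, minus strand), the perilipin of oxidative tissues that ties droplets to mitochondria, was at 18.3, 19.5 and 20.1 CPM in WT and 12.2, 12.4 and 13.2 CPM in S100a16KO+/- libraries. The genotypes did not overlap. Its log2 fold change was -0.62 (SE 0.09, 95% interval -0.80 to -0.43, adjusted p = 0.000104, edgeR's quasi-likelihood test), and per length it went from 8.26 ± 0.735 to 5.41 ± 0.443 FPKM (SD, n = 3 each). Plin2 (ENSMUSG00000028494, chromosome 4, 86648386 to 86670060, minus strand), the main coat protein of hepatocyte droplets and often used as a gauge of stored lipid, was at 122.8, 132.7 and 133.7 CPM in WT and 120.3, 104.8 and 114.7 CPM in S100a16KO+/- libraries. The lowest WT and the highest S100a16KO+/- library were thus close to each other, and on the FPKM scale (29.7, 34.9 and 34.6 against 31.3, 25.3 and 30.4) they overlapped. The log2 fold change of -0.20 (SE 0.06, 95% interval -0.33 to -0.06) passed at an adjusted p of 0.0352 in edgeR's quasi-likelihood test. Leaving out WT replicate 2, WT replicate 3, S100a16KO+/- replicate 2 or S100a16KO+/- replicate 3 alone brought the adjusted p of Plin2 to 0.123, 0.132, 0.106 and 0.0766, and limma on FPKM to between 0.206 and 0.450. The limma fits differ from the main one in test, unit, scaling and filter together.

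Plin4 (ENSMUSG00000002831, chromosome 17, 56100591 to 56109803, minus strand), a perilipin mainly of fat cells, was near 2 CPM in each library, between 1.56 and 2.30 in WT and between 1.70 and 2.06 in S100a16KO+/- libraries. Its log2 fold change of 0.03 (SE 0.23, 95% interval -0.46 to 0.52, adjusted p = 0.946, edgeR's quasi-likelihood test) changed sign when WT replicate 2, WT replicate 3 or S100a16KO+/- replicate 3 was left out, and it rested on 109 to 157 counts a library. Plin3, the perilipin found in most cells and taken from the list of other droplet proteins, had means of 20.6 and 21.9 CPM in WT and S100a16KO+/- libraries, and its log2 fold change was 0.09 (adjusted p = 0.487, edgeR's quasi-likelihood test). Plin1, the perilipin of white fat, was at or next to 0. As shares of the summed FPKM of the 5 perilipins, Plin2 held 70.8% to 71.5% in WT and 70.9% to 73.9% in S100a16KO+/- libraries, Plin5 held 17.6% to 18.1% and then 12.6% to 14.2%, and Plin3 held 9.95% to 10.7% and then 11.9% to 14.4%. The shares sum to 100%, so that of Plin3 depends on the other members, and they were not tested.

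Cideb (ENSMUSG00000022219, chromosome 14, 55754050 to 55758458, minus strand), the liver member of the CIDE family, was at 154.7, 149.3 and 152.4 CPM in WT and 122.1, 120.5 and 112.6 CPM in S100a16KO+/- libraries. The genotypes did not overlap, and the log2 fold change was -0.36 (SE 0.05, 95% interval -0.48 to -0.25, adjusted p = 0.000169, edgeR's quasi-likelihood test). Cideb shares 1136 exon bases with Nop9 on the opposite strand, and 72.8% of the 31-base stretches of its transcripts occur there. Nop9, which acts in ribosome assembly, was at 25.4 and 23.1 CPM (log2 fold change -0.14, adjusted p = 0.218, edgeR's quasi-likelihood test), and the part of its reads in the Cideb counts was not tested. Cidec (ENSMUSG00000030278, chromosome 6, 113424634 to 113435760, minus strand), the fat cell member that also appears in fatty liver, was at 2.36, 2.42 and 3.17 CPM in WT and 2.50, 3.24 and 3.57 CPM in S100a16KO+/- libraries. These overlapped, and the log2 fold change of 0.23 (SE 0.20, 95% interval -0.20 to 0.66) did not pass (adjusted p = 0.482, edgeR's quasi-likelihood test). Cideb held 97.5% to 98.8% of the summed FPKM of Cideb and Cidec over the 6 libraries.

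**Figure D2:**
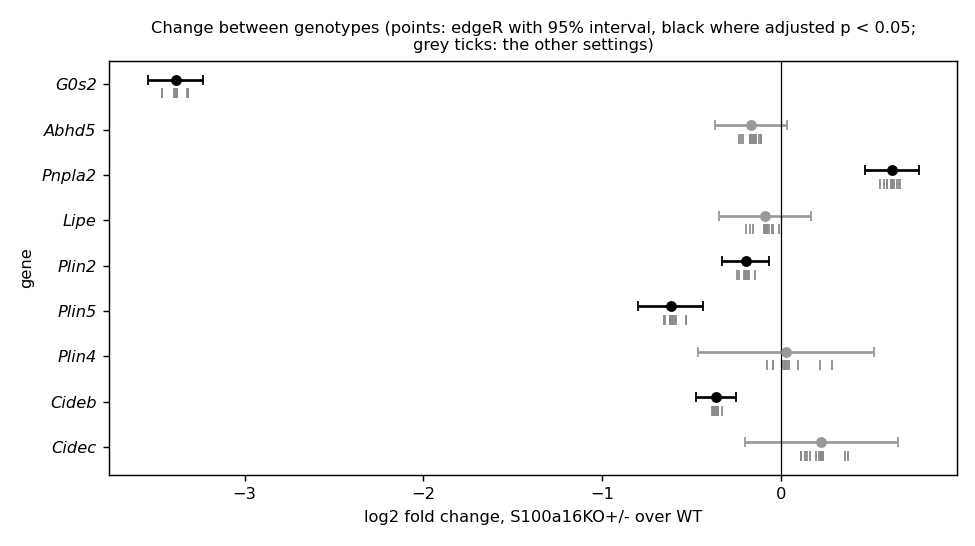
Log2 fold change (S100a16KO+/- over WT) of the 9 tested genes with its 95% interval, black where the adjusted p is below 0.05 and grey otherwise, with grey ticks for the value under each alternative way of processing. G0s2 stands alone near -3.4, Plin5, Cideb and Plin2 lie between -0.62 and -0.20, and Pnpla2 at 0.62 is the one black point above 0.

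Ordered by mean FPKM, the WT levels were 195.8 for G0s2, 91.3 for Cideb, 33.0 for Plin2, 14.7 for Pnpla2, 8.26 for Plin5, 2.40 for Abhd5, 1.61 for Lipe, 1.27 for Cidec, 0.255 for Plin4 and 0.0370 for Pnpla3. The libraries of neighbours in this order did not overlap except for Lipe (1.44 to 1.76) and Cidec (1.07 to 1.54). In S100a16KO+/- hepatocytes the order was Cideb at 71.4, Plin2 at 29, Pnpla2 at 22.7, G0s2 at 18.8, Plin5 at 5.41 and Abhd5 at 2.15 FPKM, with Lipe (1.52) and Cidec (1.49) again overlapping. G0s2 was thus the only gene to move by more than 1 place, from rank 1 to rank 4 of the 10.

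The ratio of each gene to Pnpla2 within the same library sets the inhibitor and the activator against the lipase on 1 scale. G0s2 was at 12.6, 14.1 and 13.5 times the FPKM of Pnpla2 in WT and at 0.871, 0.832 and 0.780 times in S100a16KO+/- libraries. The mean ratio went from 13.4 ± 0.771 to 0.828 ± 0.0458 (SD, n = 3 each), 16.2 times lower, so that transcripts of the inhibitor outnumbered those of the lipase in each WT library and not in any S100a16KO+/- library. The ratio of Abhd5 to Pnpla2 was 0.139, 0.185 and 0.169 in WT and 0.0963, 0.0829 and 0.106 in S100a16KO+/- libraries, and these did not overlap either, although Abhd5 itself did not pass the test. Plin5 went from 0.564 ± 0.0567 to 0.239 ± 0.0231, Cideb from 6.24 ± 0.284 to 3.15 ± 0.258 and Plin2 from 2.26 ± 0.233 to 1.28 ± 0.185 of Pnpla2 (SD, n = 3 each). Since Pnpla2 is the divisor of all these ratios and rose, part of each fall is its rise. The ratios were not tested.

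**Figure D3:**
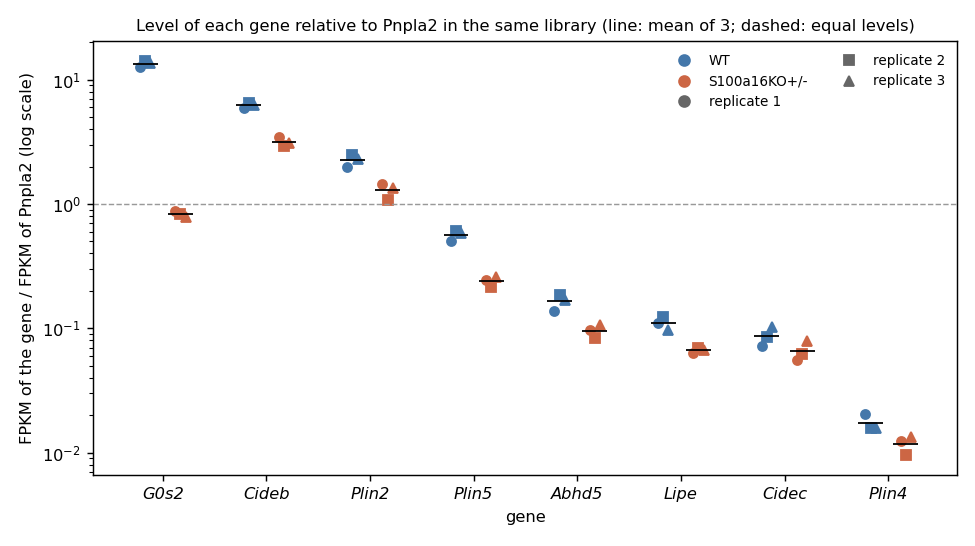
FPKM of each gene divided by the FPKM of Pnpla2 in the same library (log scale), blue for WT and orange for S100a16KO+/-, the shape giving the replicate and the line the mean of 3, with the dashed line at equal levels. G0s2 crosses the dashed line, from between 12.6 and 14.1 in WT to between 0.780 and 0.871 in S100a16KO+/- libraries, and Cideb and Plin2 stay above it.

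From the same fit 5 lists of other genes of the pathway were read, with 83 tested genes in all. Of these 13 were higher and 34 lower (56.6%, against 22.8% of all tested genes, median log2 fold change -0.16). The PPARA target genes described below supplied 2 of the higher and 19 of the lower genes. The lists too were chosen with earlier results of these data known. Of 15 tested droplet proteins other than the 10 genes, 3 were higher and 3 lower (40%, against 22.8% of all tested genes, median 0.09). Acsl3, an acyl-CoA synthetase of nascent droplets, rose from 28.3 to 42.9 CPM (log2 fold change 0.60, adjusted p = 1.99e-05, edgeR's quasi-likelihood test), and the sterol enzyme gene Nsdhl and the hepatocyte droplet protein gene Hsd17b13 rose by 0.42 and 0.18 on the log2 scale. Fitm1, which aids droplet formation, fell from 4.44 to 2.65 CPM (log2 fold change -0.75, adjusted p = 0.00368, edgeR's quasi-likelihood test), and Hsd17b11 and Ldah, the droplet-associated hydrolase gene, fell by 0.41 and 0.40. The droplet proteins as a group thus showed rises and falls in equal number.

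Of 15 tested genes of other lipases and esterases for neutral lipid, 2 were higher and 8 lower (66.7%, against 22.8% of all tested genes, median -0.17). Ces1d, the carboxylesterase known as triacylglycerol hydrolase, which mobilises lipid for lipoprotein assembly, went from 816.7 to 361.3 CPM (log2 fold change -1.18, adjusted p = 4.76e-09, edgeR's quasi-likelihood test). Its relatives Ces1f and Ces1e fell by 0.99 and 0.52 on the log2 scale, Ces3b rose by 0.51 and Pnpla7, a lysophospholipase, by 0.21. The Ces genes are close paralogs and may share reads. Mgll, which completes the pathway that Pnpla2 starts, was named after its values were seen. It went from 72.6 ± 1.11 to 51.4 ± 1.53 CPM (SD over 3 libraries of each genotype). That was a fall of 0.50 on the log2 scale (adjusted p = 1.11e-05, edgeR's quasi-likelihood test). Of the 3 classical steps the first lipase was thus higher, the second, Lipe, did not pass, and the third was lower.

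Signalling through cAMP and protein kinase A, the hormonal route to lipolysis, showed 3 higher and 1 lower of 17 tested genes (23.5%, median -0.04), a share near that of all tested genes. The glucagon receptor gene Gcgr rose from 277.8 to 338.0 CPM (log2 fold change 0.28, adjusted p = 0.00414, edgeR's quasi-likelihood test), the adenylate cyclase gene Adcy9 rose by 0.55 on the log2 scale, and the regulatory kinase subunit gene Prkar2a fell by 0.38. Among 14 transcription factors and partners known to act on these genes, 3 were higher and 3 lower (42.9%, against 22.8% of all tested genes, median -0.10). Ppargc1a, the coactivator of oxidative metabolism, rose from 6.82 to 26.5 CPM (log2 fold change 1.96, adjusted p = 2.44e-09, edgeR's quasi-likelihood test), and Cebpb and Nr1h2, the gene of the oxysterol receptor LXR beta, rose by 0.49 and 0.31. Pparg, the nuclear receptor that drives lipid storage genes, fell from 6.87 to 3.90 CPM (log2 fold change -0.81, adjusted p = 0.00254, edgeR's quasi-likelihood test), and Cebpa and Rxra fell by 0.70 and 0.16. Ppara had a log2 fold change of -0.16 and did not pass (adjusted p = 0.124, edgeR's quasi-likelihood test).

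The known PPARA target genes had the largest share of the 5 pathway lists, with 2 higher and 19 lower of 22 tested (95.5%, against 22.8% of all tested genes, median -0.58). Their summed FPKM was 6076 to 6185 in WT and 3575 to 3613 in S100a16KO+/- libraries, with no overlap. Acot1 and Acot2, acyl-CoA thioesterase genes, fell by 1.93 and 1.31 on the log2 scale, and the fatty acid hydroxylase gene Cyp4a14 went from 5260 to 2465 CPM (log2 fold change -1.09, adjusted p = 1.20e-09, edgeR's quasi-likelihood test). Pdk4, which spares glucose when fatty acids are burnt, and Cpt1a, which admits them to the mitochondrion, went the other way, by 0.89 and 0.44 on the log2 scale. Cyp4a31 did not pass (adjusted p = 0.109, edgeR's quasi-likelihood test), and the Cyp4a and Acot genes are paralogs that may share reads. The lists differ in expression level and in how their genes were picked, and were not tested against other genes.

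**Figure D4:**
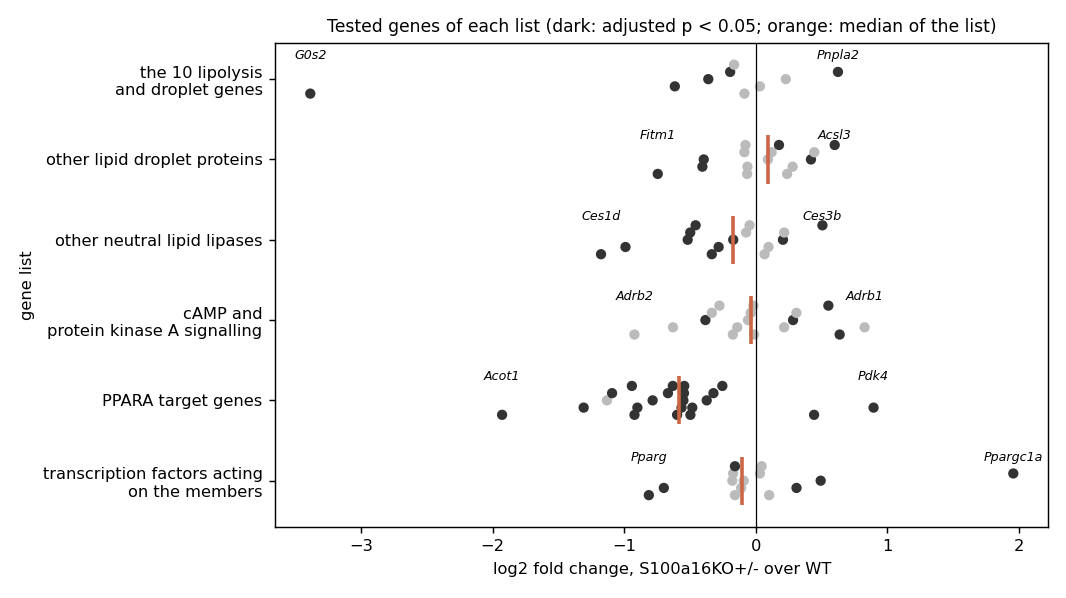
Log2 fold change (S100a16KO+/- over WT) of each tested gene of the 10 and of the 5 other lists, dark where the adjusted p is below 0.05, with an orange line at the median of each of the 5 lists and the names of the lowest and highest gene of each row. The PPARA target genes lie mostly left of 0 with a median of -0.58, and the medians of the other 4 lists lie between -0.17 and 0.09.

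Markers of the cells that the preparation could hold were read in the same libraries. Hepatocyte markers summed to 47270 to 48470 FPKM in WT and 47170 to 48120 FPKM in S100a16KO+/- libraries. Alb, with means of 33700 FPKM in WT and 32700 FPKM in S100a16KO+/- libraries, made up most of these sums. Of the 9 hepatocyte markers 2 were higher and 1 lower (33.3%, against 22.8% of all tested genes). Of the markers that passed, Fgb and Tat were at 141% and 112.6% of WT and Ttr at 79.7%. Fat cells, a main site of G0s2, Plin4, Lipe and Cidec, left little trace. Of 7 listed adipocyte markers 4 were in the table, 3 of them (Adipoq, Plin1 and Cfd) were at or under the 12-count limit, and the sum was 0.456 to 0.766 FPKM in WT and 0.702 to 1.18 FPKM in S100a16KO+/- libraries, mostly Fabp4. Among other cells, endothelial (100%), red cell (100%) and stellate markers (37.5%) passed more often than the 22.8% of all tested genes. Macrophage and cholangiocyte markers (25% each) were near that share. With so few genes in each list, the shares do not separate the cell types. Endothelial markers (5 higher and 1 lower of 6) summed to 29.9 to 33.3 and then 43.0 to 44.8 FPKM, stellate cell markers (3 higher of 8) to 5.01 to 5.16 and then 9.30 to 9.68 FPKM. Macrophage markers (2 higher of 8, median log2 fold change 0.05) summed to 46.1 to 57.0 and then 53.5 to 60.9 FPKM, with overlap. The 2 that passed, Marco and Cd68, were at 167% and 151.8% of WT, and the other 6 did not pass. Cholangiocyte markers (1 lower of 4 tested) summed to 1.68 to 2.40 and then 2.03 to 2.50 FPKM. Leukocyte markers summed to 3.59 to 5.11 and then 4.89 to 6.40 FPKM, and none of the 7 passed in edgeR's quasi-likelihood test, with 1 of them, Nkg7, at an unadjusted p below 0.05. Red cell markers (5 lower of 5) went from between 260.6 and 287.9 FPKM to between 25.3 and 26.2 FPKM, with the 4 haemoglobin genes at 8.43% to 9.28% of WT and Alas2, the first enzyme of heme synthesis in red cell precursors, at 61.6%. The part of these cells in the differences of the 10 genes was not tested.

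The 5 genes whose profile over the 6 libraries was most like that of G0s2, by Pearson r on log2(CPM + 1) among 9042 tested genes with a mean of at least 1 FPKM, were Retsat (0.9994), Clock (0.99938), Inhbe (0.99931), Ephx2 (0.99925) and Ppp2r5a (0.9992). All 5 were lower in S100a16KO+/- hepatocytes, with log2 fold changes of -1.004, -0.51, -3.84, -0.58 and -0.36 in the same order. The libraries form 2 genotype groups, so r over 6 of them mostly reflects the genotype and says little about the size of the change.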

How the data were processed

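The libraries were made by the authors from poly(A)-selected RNA of primary hepatocytes of alcohol-fed mice (3 WT and 3 S100a16KO+/- libraries), with a strand-keeping kit and unique molecular identifiers. The submitters' processing notes name cutadapt 1.9, HISAT2 2.0.4, UMI-tools, StringTie 1.3.4d, DESeq2 and edgeR, and build mm10. The deposited table holds estimated counts per gene, unnormalised, and FPKM computed by the authors. The estimated counts were whole numbers. In WT replicate 1, 936 genes had 4 counts, 561 had 3 and 259 had 5. The peak at 8 counts was weaker, with 380 genes beside 364 at 7 and 201 at 9. Counts of 1 (776 genes) and 2 (556 genes) were also common, so 4 counts per fragment is an inference. The detection limit was set in units of 4, while the main test used the counts as deposited. Library totals were 67658095 to 71807834 counts, and floors cover counting error only.

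Samples were grouped by the labels. Counts were tested with edgeR 4.0.16 (R 4.3.3) by TMM scaling, filterByExpr and the robust quasi-likelihood test, two-sided, with Benjamini-Hochberg adjustment over 15957 genes. Alternatives were DESeq2 1.42.0, limma 3.58.1 on log2(FPKM + 1) or log2(FPKM + 0.1), other scalings and filters, counts divided by 4, a replicate block, and single libraries left out. Positions and overlaps came from a GRCm38 annotation that gave the same positions as the table for all 10 genes. Promoters were searched with Python 3.11.15.

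The 10 genes and all lists were chosen with earlier results of these data known. Named genes were the 10, S100a16 and Manf, genes overlapping the 10, in each pathway list up to 3 genes with the largest rise and 3 with the largest fall among those with adjusted p below 0.05 and mean FPKM of at least 1, marker genes needed to show a range, and the 5 genes most like G0s2. Mgll, Plin3, Ppara and Cyp4a31 were added after their values were seen. No p-value was computed over a list.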

Additional observations from a re-analysis of the deposited data

How the results depend on the processing

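G0s2, Pnpla2, Plin5 and Cideb passed under the main test and all 17 alternatives, with log2 fold changes from -3.46 to -3.32, 0.55 to 0.67, -0.65 to -0.53 and -0.39 to -0.33, and Abhd5, Lipe and Cidec passed under none. Plin2 kept its direction (-0.24 to -0.14) and passed in 9 of the 17. It was lost without each of 4 single libraries, with limma on FPKM and with the replicate block, where its log2 fold change was -0.20 (adjusted p = 0.0772). The log2 fold change of Plin4 ran up to 0.29 without WT replicate 1 and S100a16KO+/- replicate 2 together, and turned to -0.075, -0.042 and -0.041 without WT replicate 2, WT replicate 3 and S100a16KO+/- replicate 3. The number of genes passing over the whole table, 3643, was 2228 by limma on log2(FPKM + 1), 2208 on log2(FPKM + 0.1) and 1370 with no filter on FPKM. It was 721, and 1 of the 10 genes in place of 5, for an unadjusted p below 0.05 with a fold change of at least 2. Without single libraries 4 or 5 of the 10 genes passed and 40 to 47 genes of the pathway lists. Deviations of libraries with the same number had r of -0.09, -0.06 and 0.10. The largest r between genotypes, 0.16, was that of WT replicate 1 with S100a16KO+/- replicate 2. With 3 libraries per genotype these values cannot decide whether the numbers pair the samples. The replicate block left 4 of the 10 genes and 42 list genes. Leaving out WT replicate 1 and S100a16KO+/- replicate 2 together was chosen after seeing the data. Pnpla3 lay under the limit of depth, and the intervals of Plin4 and Cidec, which had few counts, were the widest. The cause of the changes between settings was not tested.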
